A study of Mus musculus with 32 samples.

Results

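The ubiquitin ligases that are switched on in wasting muscle, and the FoxO transcription factors that act upstream of them, were followed in the tibialis anterior (TA) muscle of *Mtm1* KO mice from birth to the end stage of their disease. The set consists of 8 genes chosen by name, the ligase genes *Fbxo32*, *Trim63*, *Fbxo30*, *Fbxo31* and *Fbxo40*, and the factor genes *Foxo1*, *Foxo3* and *Foxo4*. All 8 were found by symbol among the 54838 genes of the count table, and all 8 passed the filter on low counts in each comparison. RNA was sequenced in 32 libraries, 1 per mouse, from WT and *Mtm1* KO mice at postnatal day (P) 1, 14, 21 and 35, with n=4 in each group. Both genotypes were on the C57BL6/J background and neither received a treatment. *Mtm1*, on the X chromosome, encodes myotubularin, a lipid phosphatase, and the KO lacks it in every tissue, so that a muscle was compared with one in a mouse that was itself ill from about P21.

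Muscle loses protein when ubiquitin ligases mark its proteins for the proteasome. *Fbxo32* (atrogin-1) and *Trim63* (MuRF1) are the best-known ligases of this kind and rise in fasting, denervation, glucocorticoid treatment and disuse. FoxO factors bind their promoters when AKT, which holds FoxO proteins in the cytoplasm by phosphorylation, is inactive. This control acts largely on the FoxO proteins, and RNA levels do not report it. *Fbxo32*, *Fbxo30* (MUSA1), *Fbxo31* and *Fbxo40* encode F-box proteins, the part of an SCF ligase that holds the substrate, whereas MuRF1 is a RING ligase that works on its own with an E2 enzyme.

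The libraries held 49321035 to 85631408 counts each (median 59926198). *Mtm1* itself was at 5.26 to 6.02 CPM (counts scaled to a common library total) in WT and 2.32 to 3.91 in KO at P1, and at 18.9 to 24.9 in WT and 2.64 to 4.51 in KO at the 3 later ages, so that it was lower in every KO library of each age. The 6 muscle fibre markers summed to 14580 to 29551 CPM at P1 and to 66697 to 169869 later. At P1, 4 keratinocyte markers summed to 1470 to 5707 CPM in both genotypes, against at most 6.16 at the later ages, and their part in the results at P1 was not tested. The CPM values below were scaled by TMM over all 32 libraries, whereas each fold change comes from the edgeR fit of the 8 libraries compared. A gene was called at an adjusted *P*-value under 0.01 with a change of more than 1.5-fold either way.

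**Figure D1:**
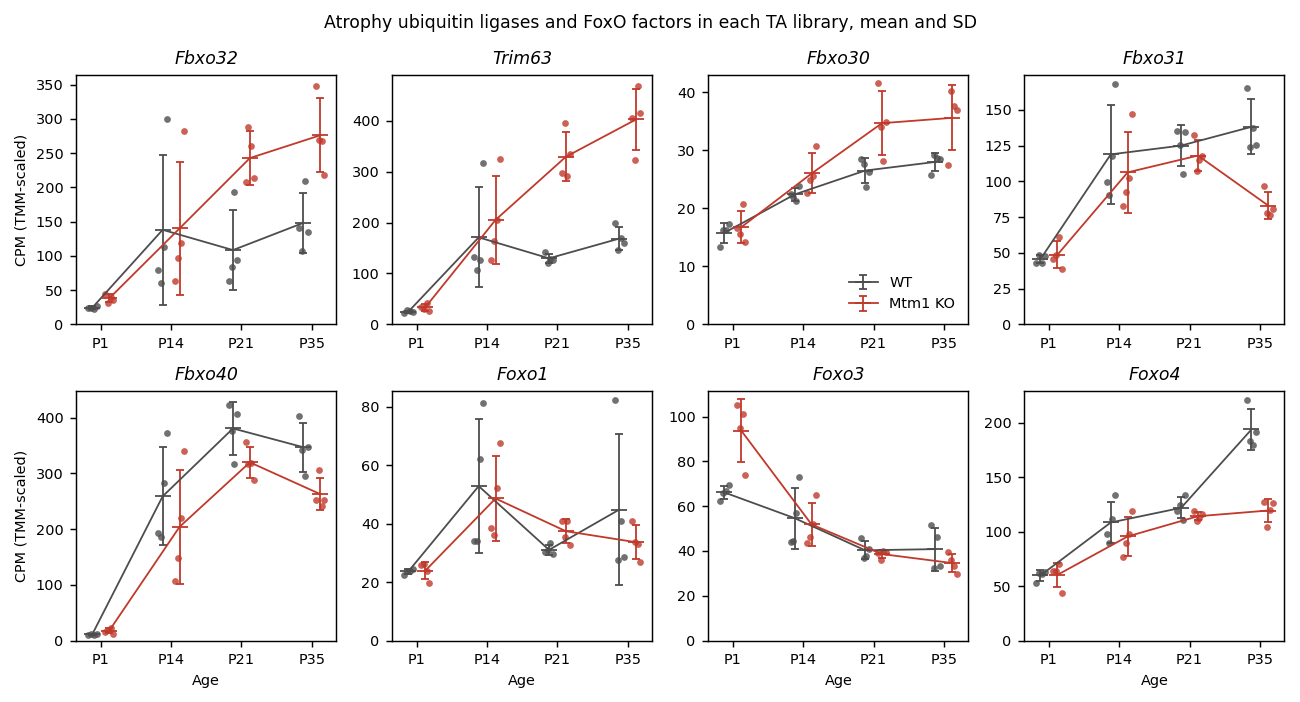
TMM-scaled CPM (vertical axis, linear from 0, a separate scale for each gene) of the 8 genes at the 4 ages (horizontal axis). Points are single libraries, and lines join the means with SD (n=4) of WT in grey and *Mtm1* KO in red. *Trim63* at P21 stood at 121 to 143 in WT and 291 to 395 in KO, *Foxo4* at P35 at 179.8 to 220.4 and 104 to 127, and the P14 groups were the widest for *Fbxo32*.

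In WT muscle all 5 ligases were higher at P14 than at birth with TMM scaling, and all but *Fbxo30* were called. *Fbxo40*, a ligase found mainly in skeletal muscle and known to act on IRS1, had the steepest course: 10.4, 12.3, 10.8 and 11.2 CPM at P1 and 193, 187, 282 and 373 CPM at P14, a 23.0-fold rise (log2 4.52, SE 0.237, adjusted *P*=2.2e-07). *Trim63* rose 6.83-fold (log2 2.77, SE 0.33) and *Fbxo32* 5.64-fold (log2 2.50, SE 0.456) over the same interval. *Fbxo31*, which acts on cyclin D1, rose 2.59-fold, *Foxo1* 2.22-fold and *Foxo4* 1.80-fold. *Fbxo30* was 1.41-fold higher, with an adjusted *P*=0.000376 but under the fold threshold, and *Foxo3* was not called, with a log2 fold change of -0.29 (adjusted *P*=0.101). Thus 6 of the 8 genes were called between P1 and P14 in WT, all of them higher at P14, where 55.1% of the 17435 genes tested were called in either direction. With library totals in place of TMM, the calls of *Fbxo31* (log2 0.58), *Foxo1* (0.34, adjusted *P*=0.161) and *Foxo4* (0.07, adjusted *P*=0.472) were lost in WT, and *Foxo3* was called and lower at P14 (-1.08, adjusted *P*=1.03e-05). In KO muscle all 8 were called over this interval, against 52.6% of 17719 genes. Of these, 7 rose, from 1.52-fold for *Fbxo30* to 11.4-fold for *Fbxo40*, and *Foxo3* fell by 0.88 on the log2 scale (SE 0.149, adjusted *P*=0.000437). With 1 library left out, the call of *Foxo4* in KO was kept in 2 of 8 fits (without P1 replicate 3 or P14 replicate 1), and that of *Fbxo30* in 5, the exceptions being P1 replicates 2 and 4 and P14 replicate 4. With library totals, 3 of the 8 were called in KO. *Fbxo30* then stood lower at P14 in both genotypes (log2 -0.28 in WT and -0.11 in KO), as did *Foxo4* in KO (-0.08). Tissue other than muscle, by the keratinocyte markers above, also went down between P1 and P14, and its part was not tested.

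After P14 few of these genes moved with age. Between P14 and P21 none of the 8 was called in either genotype, where 5.53% of the genes tested in WT and 7.04% in KO were. At an unadjusted *P*-value under 0.05 there were 4 of the 8 in WT, against 6081 of all 15337 genes tested. In KO there were 3, against 6437 of 15585. DESeq2 called 0 of the 8 in both. The counts of members called depended on replicate 4 of P14. Without it in KO, *Fbxo32* (log2 1.37), *Trim63* (0.98) and *Fbxo40* (0.99) were called and higher at P21, and without it in WT *Fbxo40* was (0.79). Between P21 and P35, *Foxo4* was the 1 gene called in WT, against 2.45% of all genes tested. It rose 1.57-fold (log2 0.65, SE 0.0861, adjusted *P*=0.00307). In KO none of the 8 was called over this interval by either tool, against 4.01% of all genes. An unadjusted *P*-value under 0.05 was found for 3 of the 8, and for 6096 of all 15734 genes tested. *Foxo4* had a log2 fold change of 0.08 there (adjusted *P*=0.461), and *Fbxo31* one of -0.49 (adjusted *P*=0.00823), under the fold threshold. The call of *Foxo4* in WT was lost without replicate 1 of P21 or replicate 4 of P35, with log2 fold changes of 0.59 to 0.69 over the 8 fits that each left out 1 library.

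Per kilobase of exon, the order of the levels changed between the genotypes. In WT at P35, *Fbxo40* (62.9 ± 7.90 CPM per kb, SD, n=4), *Trim63* (59.4 ± 8.07) and *Foxo4* (55.6 ± 5.30) stood together at the top and did not differ beyond their spread. *Fbxo31* (25.2 ± 3.49) and *Fbxo32* (21.2 ± 6.23) followed within their spread of each other. *Fbxo30* (5.39 ± 0.30), *Foxo3* (5.39 ± 1.27) and *Foxo1* (5.17 ± 2.96) were lowest and could not be ordered. In KO at P35, *Trim63* (142 ± 21.1) stood alone at the top, followed by *Fbxo40* (47.6 ± 5.24), *Fbxo32* (39.6 ± 7.71) and *Foxo4* (34.2 ± 3.02), with *Fbxo31* (15.1 ± 1.69) below them. *Fbxo30* (6.85 ± 1.08) was then above *Foxo3* (4.57 ± 0.55), and *Foxo1* (3.88 ± 0.67) stayed within the spread of *Foxo3*. At P1 the order was another one in both genotypes, with *Foxo4* at the top (17.1 ± 1.39 in WT and 17.3 ± 3.21 in KO) and *Fbxo40* among the lowest in WT (2.02 ± 0.15).

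P1 lies in the phase that the authors call pre-symptomatic, although they measured weight and motor function from P14 on. At P1 no gene of the set was called between KO and WT, where 0.0442% of 18100 genes were called in either direction. All 8 estimates were above 0. An unadjusted *P*-value under 0.05 was found for 4 of the 8, and for 1978 of the 18100 genes. *Fbxo32* was at 24.2, 23.8, 22.04 and 27.2 CPM in WT and at 44.8, 31.4, 40.2 and 35.0 CPM in KO. No KO library was below a WT library, with a log2 fold change of 0.65 (SE 0.117, 95% confidence interval 0.39 to 0.92, adjusted *P*=0.0706). DESeq2 called it (log2 0.64, adjusted *P*=0.000411), and it was the 1 gene of the set that DESeq2 called at this age. *Foxo3*, the factor most often tied to *Fbxo32* induction, was at 62.5, 65.7, 67.0 and 69.4 CPM in WT and at 105, 94.7, 101 and 73.9 CPM in KO. The groups did not overlap here either, and the log2 fold change was 0.52 (SE 0.107, adjusted *P*=0.106). Without KO replicate 4, the lowest of its group, it was 0.62 and called (adjusted *P*=0.00532). The groups of 2 of the 8 genes thus did not overlap, against 8.73% of all genes tested. *Fbxo40* had a log2 fold change of 0.66 (adjusted *P*=0.222) and *Trim63* one of 0.43 (adjusted *P*=0.297), with groups that overlapped. *Foxo1*, *Foxo4*, *Fbxo30* and *Fbxo31* had log2 fold changes of 0.03 to 0.11.

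A known inducer pathway was measured beside this. The list of 19 genes for inducers and repressors of *Fbxo32* and *Trim63* also holds readouts of the glucocorticoid receptor. Of the 19, 1 was called at P1, against 0.0442% of all genes. It was *Fkbp5*, a gene long used as a readout of the glucocorticoid receptor, at 23.3 ± 4.83 CPM in WT and 68.8 ± 6.25 in KO (log2 1.57, SE 0.141, adjusted *P*=0.00402). The other glucocorticoid-responsive genes of the list, picked after their values were seen, were not called: *Klf15* had a log2 fold change of 1.37 (adjusted *P*=0.0369), *Cebpd* one of 0.96 (adjusted *P*=0.0155) and *Tsc22d3* one of 0.96 (adjusted *P*=0.0133). DESeq2 called these 3 and *Fkbp5*, and with them *Ddit4*, 5 of the 111 listed genes. In *Fkbp5*, *Klf15*, *Cebpd* and *Tsc22d3* the genotypes were apart in all libraries. *Nr3c1*, the receptor, had a log2 fold change of -0.04 (adjusted *P*=0.875). At P14 and later *Fkbp5* was not called, with log2 fold changes of -0.20 at P14, -0.25 at P21 and -0.98 at P35.

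At P14 no gene of the set was called, where 0.0318% of 15728 genes were, and 1, *Fbxo30*, had an unadjusted *P*-value under 0.05 (log2 0.21, SE 0.0919, adjusted *P*=0.718). Of the 15728 genes, 1072 had one under 0.05. DESeq2 also called none of the 8. The groups overlapped for all 8 genes, against 4.82% of genes whose groups did not. What set these samples apart was the spread within each genotype. *Fbxo32* was at 79.4, 59.9, 113 and 299 CPM in WT and at 64.0, 96.3, 118 and 282 CPM in KO. The highest library of each genotype was replicate 4, and the coefficients of variation were 79.6% in WT and 69.3% in KO, against 8.81% and 15.5% at P1. *Trim63* was at 131, 107, 127 and 318 CPM in WT and at 127, 164, 205 and 325 CPM in KO, again with replicate 4 on top. All 8 genes were highest in replicate 4 of WT, and all 8 were highest in replicate 4 of KO. Of the 18583 genes fitted over all libraries, 24% were highest in replicate 4 of both genotypes. Among FoxO target genes this held for 13 of 20, which include *Pdk4*, *Irs2*, *Ddit4*, *Bnip3* and *Gabarapl1*. It held for 11 of 19 genes of the SCF core, E1, E2, ubiquitin and deubiquitinases and for 9 of 16 known substrates of the ligases. In the remaining lists it held for 7 of 19 genes listed with the inducers and repressors and 7 of 22 other muscle ligases. Among other FoxO genes and regulators of FoxO activity it held for 4 of 15. These counts were made after the values of the P14 libraries had been seen. With this spread the 95% confidence interval of *Fbxo32* ran from -1.31 to 1.34 on the log2 scale. Same-numbered WT and KO libraries deviated together at this age. When the replicate number entered the fit as a block, the log2 fold change of *Fbxo32* was 0.08 (SE 0.123, adjusted *P*=0.759), against an SE of 0.583 without the block. No gene of the set was called with the block either. With the block, 5 of the 8 and 3423 of the 15728 genes had an unadjusted *P*-value under 0.05. Among the 8, *Fbxo40* had the lowest adjusted one (log2 -0.42, SE 0.0905, adjusted *P*=0.0279). In the fit without the block, the log2 fold change of *Fbxo32* was -0.58 without KO replicate 4 and 0.73 without WT replicate 4.

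**Figure D2:**
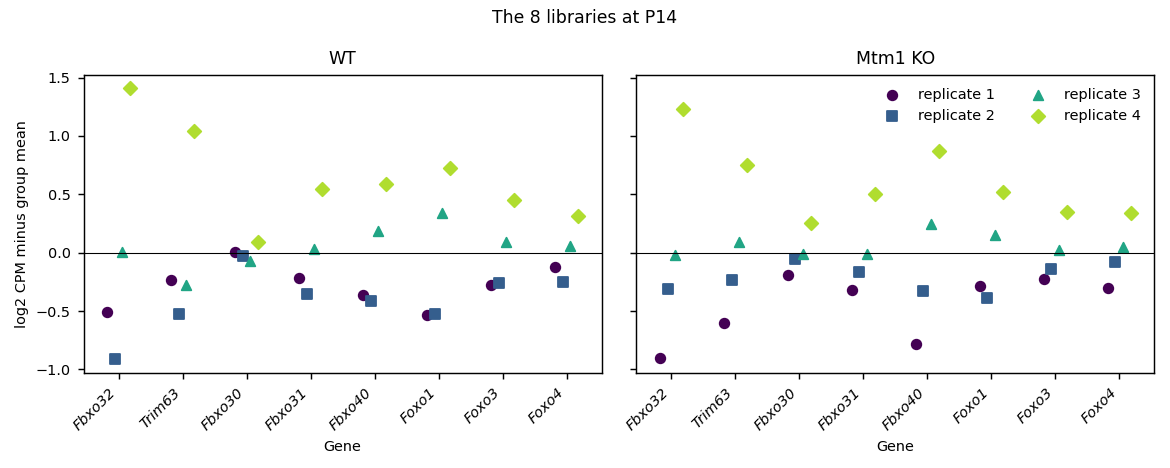
Log2 CPM of each gene at P14 minus the mean of its group (vertical axis) for the 8 genes (horizontal axis), with WT on the left and *Mtm1* KO on the right. Symbols are the 4 replicates. Replicate 4 is the highest library in all 8 genes of both panels.

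At P21, the age at which the mice first show symptoms, *Trim63* was higher in KO than in WT and was the 1 gene of the set called. It was at 143, 121, 128 and 128 CPM in WT and at 297, 395, 291 and 335 CPM in KO. The lowest KO library was above the highest WT library by more than the whole range of WT. *Trim63* was 2.56-fold higher in KO (log2 1.36, SE 0.106, adjusted *P*=0.000142) and was called in each of the 8 fits that left out 1 library. Of the 15179 genes tested, 4.67% were called in either direction and 3.18% were called and higher in KO. *Fbxo32* was at 62.7, 83.7, 193 and 94.3 CPM in WT and at 208, 289, 261 and 214 CPM in KO. The groups did not overlap, but WT replicate 3 stood well above the other WT libraries. The log2 fold change was 1.17 (SE 0.314, 95% confidence interval 0.47 to 1.87), with an adjusted *P*=0.0278 that missed the threshold. Without WT replicate 3 it was 1.60 and called (adjusted *P*=0.00135). *Fbxo30*, known to rise in denervated muscle, was at 23.6 to 28.6 CPM in WT and 28.1 to 41.7 in KO (log2 0.40, SE 0.108, adjusted *P*=0.0285). Its groups overlapped slightly on this scale and did not with TMM over the 8 libraries of P21, on which scale the groups of 3 of the 8 genes did not overlap, against 25.4% of all genes tested. It was called with library totals (log2 0.59).

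The FoxO factors were close to WT at P21. *Foxo1* was at 29.5 to 33.4 CPM in WT and 32.5 to 40.8 in KO (log2 0.28, SE 0.0877, adjusted *P*=0.0486). *Foxo3* had a log2 fold change of -0.05 (95% confidence interval -0.21 to 0.12) and *Foxo4* one of -0.08 (-0.23 to 0.06). *Fbxo31* had one of -0.07 (-0.27 to 0.13) and *Fbxo40* one of -0.24 (-0.45 to -0.03, adjusted *P*=0.103). With library totals, which moved the median of all genes to 0.20, the estimates of *Foxo3*, *Foxo4* and *Fbxo31* were above 0.

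At P35, the end stage, 4 of the 8 genes were called, *Trim63* and *Fbxo32* higher and *Foxo4* and *Fbxo31* lower in KO. Of the 15595 genes tested, 16.0% were called in either direction and 8.49% were called and higher in KO. *Trim63* was at 199.8, 146, 170 and 160 CPM in WT and at 405, 324, 469 and 415 CPM in KO. It was 2.43-fold higher in KO (log2 1.28, SE 0.133, adjusted *P*=0.000171). *Fbxo32* was at 141, 107, 210 and 134 CPM in WT and at 348, 269, 268 and 218 CPM in KO. The lowest KO library stood just above WT replicate 3, and *Fbxo32* was 1.90-fold higher in KO (log2 0.92, SE 0.207, adjusted *P*=0.00654). The call was kept without WT replicate 3 or KO replicate 4 and lost without any 1 of the other 6 libraries, with adjusted *P*-values of 0.00164 to 0.0218 and log2 fold changes of 0.78 to 1.13. It was also lost in the fit of all 32 libraries (log2 0.90, adjusted *P*=0.0689).

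*Foxo4*, the FoxO gene on the X chromosome, was at 220, 183, 180 and 192 CPM in WT and at 127, 104, 120 and 126 CPM in KO at P35. Every WT library was above every KO library, and the gene was 1.60-fold lower in KO (log2 -0.67, SE 0.0942, adjusted *P*=0.000606). *Fbxo31* was at 165, 124, 138 and 125 CPM in WT and at 96.7, 78.1, 76.8 and 80.5 CPM in KO, also without overlap and 1.64-fold lower (log2 -0.71, SE 0.116, adjusted *P*=0.0013). Both were called in each of the 8 fits that left out 1 library. With library totals, which moved the median of all genes to 0.44, the log2 fold changes were -0.27 for *Foxo4* and -0.31 for *Fbxo31* and neither was called. The groups of the 4 called genes did not overlap, and those of the other 4 did, where 39.6% of all genes tested had groups that did not overlap.

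The remaining genes were not called at P35. *Fbxo40* was at 296 to 402 CPM in WT and 241 to 305 in KO (log2 -0.38, SE 0.114, adjusted *P*=0.0253), and *Fbxo30* at 25.7 to 29.2 in WT and 27.5 to 40.3 in KO (log2 0.37, SE 0.114, adjusted *P*=0.0265). *Foxo1* was at 82.2, 27.5, 40.8 and 28.7 CPM in WT and at 40.9, 33.7, 33.0 and 26.7 CPM in KO. WT replicate 1 was the highest of the 8, and the log2 fold change of -0.39 (SE 0.325, adjusted *P*=0.362) became 0.08 without it. *Foxo3* was at 32.2 to 51.6 CPM in WT and 29.8 to 39.6 in KO (log2 -0.21, SE 0.162, adjusted *P*=0.316). With library totals *Fbxo30* was called (log2 0.78), and *Fbxo40*, *Foxo1* and *Foxo3* had estimates above 0.

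**Figure D3:**
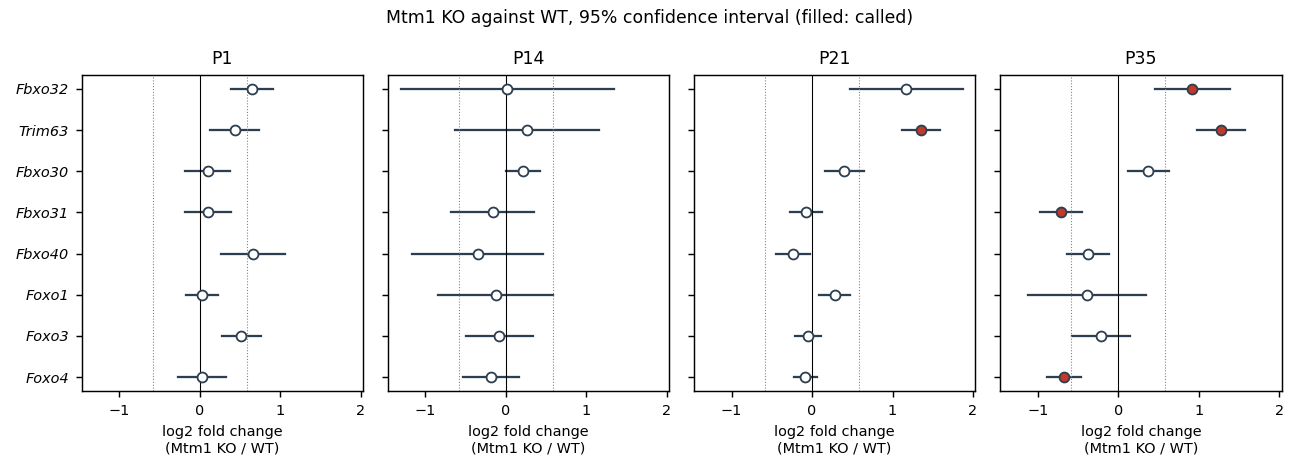
Log2 fold change of *Mtm1* KO over WT (horizontal axis) with its 95% confidence interval for the 8 genes (vertical axis) at each age. Filled points were called and dotted lines mark the fold threshold of 1.5. *Trim63* was called at P21 and P35, and *Fbxo32*, *Fbxo31* and *Foxo4* at P35.

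Markers of several cell types differed between the genotypes at the ages of these calls. In bulk RNA, fewer cells of a type and less RNA per cell cannot be told apart. The 6 muscle fibre markers summed to 107651 to 144800 CPM in WT and 66697 to 89949 in KO at P35, with 1 of the 6 called lower, and their sums did not overlap. The 5 macrophage markers summed to 28.8 to 35.8 CPM in WT and 41.6 to 61.8 in KO, with 3 called higher. The 4 adipocyte markers summed to 5.12 to 25.1 and 40.3 to 165.7, with 3 called higher. The 4 satellite cell markers summed to 8.35 to 11.0 and 2.93 to 3.92, with 3 called lower, and the 5 endothelial markers to 328 to 611 and 286 to 357, with 2 called lower. The 5 fibroblast markers summed to 3115 to 3927 in WT and 3190 to 4959 in KO. The 4 Schwann cell markers summed to 35.8 to 312 in WT and 158 to 671 in KO, with none called. Mitochondrially encoded genes took 12.4 to 17.9% of the counts in WT and 10.3 to 10.5% in KO. No marker of these types was at 0 in a whole group at P35. At P21, 2 macrophage markers were called higher and 3 satellite cell markers lower, and the sums of the muscle fibre markers, 131893 to 169869 in WT and 114404 to 130882 in KO, did not overlap. Nor did those of the endothelial markers, 549 to 835 in WT and 433 to 519 in KO, or the mitochondrial shares, 9.75 to 11.99% in WT and 8.21 to 8.78% in KO. The part of these shifts in the values of the 8 genes was not tested.

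Whether the effect of the KO differed between neighbouring ages was tested as an interaction. None of the 8 genes passed an adjusted *P*-value of 0.01 in any of the 3 tests, where 0.0161%, 0.425% and 0.463% of the 18583 genes did for P14 against P1, P21 against P14 and P35 against P21. DESeq2 called none of them either, and 2, 1 and 2 of the 8 had an unadjusted *P*-value under 0.05. Of the 18583 genes, 1200, 2398 and 3241 had one under 0.05 in these 3 tests. The effect on *Fbxo40* was lower at P14 than at P1 by a log2 difference of -0.99 (SE 0.34, adjusted *P*=0.586), and that on *Foxo3* by -0.58 (SE 0.214, adjusted *P*=0.643). The effect on *Trim63* was higher at P21 than at P14 by 1.08 (SE 0.355, adjusted *P*=0.141), and that on *Fbxo32* by 1.14 (SE 0.559, adjusted *P*=0.388). From P21 to P35 the effect moved by -0.61 for *Foxo4* (SE 0.181, adjusted *P*=0.0706), by -0.65 for *Fbxo31* (SE 0.235, adjusted *P*=0.14) and by -0.09 for *Trim63* (SE 0.354, adjusted *P*=0.941). With the replicate block, some of these values were lower. For P21 against P14 the adjusted *P*-value was then 0.0162 for *Trim63* and 0.047 for *Fbxo32*. For P35 against P21 it was 0.0159 for *Fbxo31* and 0.0264 for *Foxo4*, and for P14 against P1 0.0496 for *Fbxo40*. The lowest of the rest was 0.148, for *Foxo1* at P35 against P21. Library totals gave 0.024 for *Trim63* at P21 against P14 and 0.0782 or more elsewhere. None was under 0.01. A call at one age and not at another is thus not shown at this threshold to be a difference between ages for any of the 8.

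Ratios within a library do not depend on the scaling between libraries. The log2 ratio of *Fbxo32* to *Trim63* did not separate the genotypes at any age. At P35 it was -0.22 ± 0.37 in WT and -0.55 ± 0.37 in KO (SD, n=4, two-sided exact permutation test, *P*=0.257, adjusted over 8 tests 0.457). The log2 ratio of *Foxo1* to *Foxo3* at P1 was -1.47, -1.48, -1.50 and -1.50 in WT and -2.03, -1.86, -2.09 and -1.90 in KO. The groups did not overlap and differed by -0.48, at the smallest *P*-value that the exact test allows with these groups (*P*=0.0286), but not after adjustment (0.229). At the later ages the groups overlapped, with differences of 0.00 at P14, 0.32 at P21 (exact permutation test, *P*=0.0857) and -0.06 at P35.

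Promoter sequences were read for the genes of the set that the RefSeq table of GRCm38.p6 holds, *Trim63*, *Fbxo30*, *Fbxo31*, *Fbxo40*, *Foxo1* and *Foxo3*, with 7 windows for 6 genes, because *Fbxo40* has 2 start sites. They were searched on both strands of the 250 bases before the start for the FoxO core TGTTTAC, its longer form TTGTTTAC, the E-box CANNTG, which MyoD and myogenin bind, and the palindromic glucocorticoid response element. Of the 7 windows, 1 held the FoxO core, that of *Trim63*, and it held the longer form there too. Of all 32851 promoters of the same length, 3.17% held the core and 1.06% the longer form. E-boxes were found in the windows of *Trim63*, *Foxo1* and both of *Fbxo40*, and in 66.2% of all promoters. The full glucocorticoid element, counted only as an exact match of the half-sites AGAACA and TGTTCT at their set spacing, was in none of the 7 and in 0.009% of all. The half-site TGTTCT, searched after the *Trim63* sequence had been seen, lay in it directly before the FoxO core, 200 to 195 bases from the start, and in 16.1% of all promoters. At the set spacing before it, the *Trim63* window has TGAACA, which differs from AGAACA in 1 base. How often such near matches occur in other promoters was not counted. The windows of *Trim63* and *Fbxo31* are shown in their own transcription direction, with the FoxO core and the E-boxes in capitals. *Trim63* had the lowest adjusted *P*-value among the genes higher in KO, and *Fbxo31* was the gene lowered most in KO at P35. *Trim63* is read from chr4:134314870-134315119, plus strand, and *Fbxo31* from chr8:121578807-121579056, minus strand. The last window shown is that of *Fbxo40* at chr16:36990468-36990717, minus strand, which has 4 E-boxes, more than any other window of the set.
Trim63: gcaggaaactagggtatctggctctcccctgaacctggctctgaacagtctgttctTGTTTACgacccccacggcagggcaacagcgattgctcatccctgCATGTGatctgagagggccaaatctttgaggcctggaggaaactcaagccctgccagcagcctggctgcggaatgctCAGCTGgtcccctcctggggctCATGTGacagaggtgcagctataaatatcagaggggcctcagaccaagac
Fbxo31: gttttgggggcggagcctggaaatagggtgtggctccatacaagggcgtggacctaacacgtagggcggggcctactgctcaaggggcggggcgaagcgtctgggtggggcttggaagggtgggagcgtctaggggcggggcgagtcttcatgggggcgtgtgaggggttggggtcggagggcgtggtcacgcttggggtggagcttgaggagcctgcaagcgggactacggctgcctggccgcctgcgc
Fbxo40: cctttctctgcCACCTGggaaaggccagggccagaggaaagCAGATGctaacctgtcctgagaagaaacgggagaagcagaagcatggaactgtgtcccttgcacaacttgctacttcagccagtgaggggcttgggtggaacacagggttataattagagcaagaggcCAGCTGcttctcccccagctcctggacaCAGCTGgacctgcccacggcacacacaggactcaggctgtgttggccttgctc

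*Trim63* thus has the FoxO core 194 to 188 bases before its start and E-boxes at 149 to 144, 72 to 67 and 50 to 45 bases. The *Fbxo31* window, with 68% G and C, held none of the motifs. In GRCm38 the genes lie on chromosome 15 (*Fbxo32*, 58175879 to 58214932, minus strand), 4 (*Trim63*, 134315120 to 134329629, plus), 10 (*Fbxo30*, 11281330 to 11298052, plus, and *Foxo3*, 42181841 to 42276755, minus), 8 (*Fbxo31*, 121549440 to 121578806, minus), 16 (*Fbxo40*, 36963460 to 36990467, minus), 3 (*Foxo1*, 52268336 to 52353221, plus) and X (*Foxo4*, 101254528 to 101260873, plus). *Fbxo32* and *Foxo1* share exon bases with antisense genes, *Gm15943* and *Gm20402*, which had mean counts of 6 and 1 per library.

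The rest of the pathway was described with 6 lists of 111 genes, which hold none of the 8. For these lists, rose and fell mean higher and lower in KO than in WT of the same age. At P21, 13 of the 111 were called, 10 higher and 3 lower in KO, with a median log2 fold change of 0.06 against 0.01 over all genes, of which 4.67% were called. At P35, 26 were called, 12 higher and 14 lower, with a median of -0.06 against 0.04 over all genes, of which 16.0% were called. At P1, 1 was called and at P14 none, where 13 of the 111 had an unadjusted *P*-value under 0.05 and DESeq2 called 2, *Runx1* and *Uchl1*. Of all 15728 genes tested at P14, 1072 had an unadjusted *P*-value under 0.05. With the replicate number as a block, 4 of the 111 and 98 genes in all were called at P14. These 4 were *Runx1* (log2 1.22), *Cdkn1a* (1.09), *Uchl1* (0.60) and *Mybpc2* (-0.68), and none of the 8 members was among the calls.

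Among 20 FoxO target genes, 3 were called at P21 (4.67% of all genes) and 4 at P35 (16.0% of all genes), in both directions, so that the share at P35 was near that of all genes. *Cdkn1a*, which encodes the cell cycle inhibitor p21, was at 26.6 ± 3.48 CPM in WT and 275 ± 69.4 in KO at P21 (log2 3.38, SE 0.19) and at 17.6 ± 8.24 and 247 ± 82.0 at P35 (log2 3.83, SE 0.357). *Gadd45a*, known to rise in denervated muscle, rose by a log2 fold change of 1.23 at P21 and 1.57 at P35. *Sod2*, the superoxide dismutase of mitochondria, fell by 0.73 and 1.15 on the log2 scale, and *Insr*, the insulin receptor, fell by 0.62 at P35. The median of the list was 0.16 at both ages. *Pdk4*, a target that fasting induces, was not called at any age (log2 0.01, -0.42, -1.26 and 0.47 from the youngest to the oldest). The autophagy genes *Gabarapl1* (log2 0.48 at P21 and 0.50 at P35), *Map1lc3b* (0.25 and -0.11) and *Bnip3* (0.06 and -0.01), named after their values were seen, were not called.

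Of the 15 other FoxO genes and regulators of FoxO activity, none was called at P21, against 4.67% of all genes. There 6 had an unadjusted *P*-value under 0.05, as did 5329 of all 15179 genes tested, and DESeq2 called 0 of the 15. At P35, 4 were called, against 16.0% of all genes. *Sgk1*, a kinase that phosphorylates FoxO proteins, fell by 1.30 on the log2 scale (SE 0.28, adjusted *P*=0.00537), from 268 ± 27.6 to 107 ± 48.6 CPM. The AMPK subunits moved apart: *Prkaa2*, the form that muscle uses most, fell by 0.82 (SE 0.0881) and *Prkaa1* rose by 0.86 (SE 0.0941). *Ep300*, an acetyltransferase that acts on FoxO proteins, fell by 0.78 (SE 0.142). *Foxo6*, the remaining FoxO gene, was at 20.9 CPM in WT and 15.2 in KO at P35 and was not called (log2 -0.43, adjusted *P*=0.0236).

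Of 22 other ligases of muscle, 1 was called at P21 and 5 at P35, 1 higher and 4 lower, against 4.67% and 16.0% of all genes, so that the share at P21 was no larger than that of all genes. *Trim72*, a membrane repair protein of muscle, rose by 0.62 at P21 (SE 0.127, adjusted *P*=0.00922) and by 0.79 at P35 (SE 0.0975). At P35 *Wwp1* fell by 0.85, *Asb2* by 0.66, *Ubr2* by 0.64 and *Trim55* by 0.60 on the log2 scale. *Trim55* encodes MuRF2, a close relative of MuRF1, and was at 94.98 ± 9.31 CPM in WT and 61.5 ± 7.58 in KO where *Trim63* rose. The median of the list was -0.29 at P35, against 0.04 over all genes. Of 19 genes of the SCF core, E1, E2, ubiquitin and deubiquitinases, 1 was called at P21 and 2 at P35, all higher, again near the share of all genes. *Uchl1*, a ubiquitin hydrolase best known from neurons, rose by a log2 fold change of 2.38 at P21 (SE 0.283) and of 3.27 at P35 (SE 0.249), from 3.402 ± 1.06 to 32.2 ± 7.34 CPM at the latter age. *Rps27a*, which encodes ubiquitin fused to a ribosomal protein, rose by 0.65 at P35 (SE 0.0953).

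**Figure D4:**
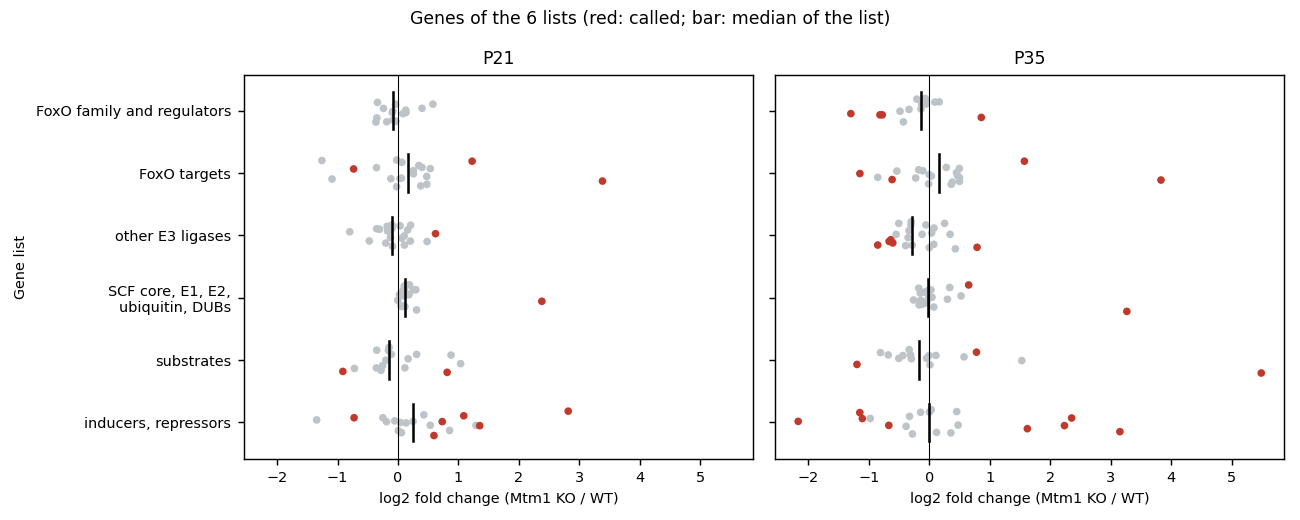
Log2 fold change of *Mtm1* KO over WT (horizontal axis) for the 111 genes of the 6 lists (rows, with points spread vertically so that they can be seen) at P21 and P35. Red points were called, grey ones were not, and bars are list medians. *Cdkn1a*, *Uchl1*, *Runx1* and *Myh7* lie farthest to the right, and most genes lie near 0.

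Known substrates of the ligases also moved in both directions. Of 16, 2 were called at P21, against 4.67% of all genes. At P35, 3 were called, against 16.0%, so that the share was near that of all genes. *Mybpc2*, the fast myosin binding protein C, fell by 0.91 at P21 (SE 0.189, adjusted *P*=0.00968) and had a log2 fold change of -1.196 at P35 (SE 0.225). *Des*, which encodes desmin, rose by 0.81 and 0.78. *Myh7*, the slow myosin heavy chain, was at 10.2 ± 12.8 CPM in WT and 450 ± 196 in KO at P35 (log2 5.49, SE 0.825, adjusted *P*=0.000874). The list for known inducers and repressors of *Fbxo32* and *Trim63* has 19 genes, readouts of the glucocorticoid receptor among them. Of these, 6 were called at P21, 5 higher and 1 lower, against 4.67% of all genes. At P35, 8 were called, 4 each way, against 16.0% of all genes. At P21 *Runx1* (log2 2.81, SE 0.237), *Myog* (1.35, SE 0.22) and *Relb* (1.09, SE 0.166) had the largest rises. *Runx1* and *Myog* are known to go up in denervated muscle, and myogenin binds E-boxes in the promoters of both ligases. *Hdac4*, also known from denervated muscle, rose by 0.73 at P21 and *Stat3* by 0.59. At P35 the largest rises were those of *Runx1* (3.15, SE 0.224), *Myog* (2.35, SE 0.286) and *Tnfrsf12a*, the TWEAK receptor (2.24, SE 0.34). *Ppargc1a*, which encodes PGC-1alpha, a repressor of FoxO activity in muscle, fell by 0.73 at P21 (SE 0.0843) and by 1.15 at P35 (SE 0.0978). *Mstn*, which encodes myostatin, fell by 2.17 and *Smad3* by 1.11 at P35.

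The genes whose course over the 8 group means of log2 CPM was closest to that of each member were looked up among all genes tested at the 4 ages, as a description with no test. *Trim63* was the second closest gene to *Fbxo32* (Pearson r=0.99 over 8 groups), and *Mepce* was the closest (r=1.00). After the group means were subtracted, r over the 32 libraries was 0.75 with *Trim63* and 0.23 with *Mepce*. For *Trim63* the closest were *Ankrd37* and *Psmc2*, a proteasome subunit (r=1.00 and 0.99), with r of -0.15 and 0.66 within groups. *Fbxo40* was closest to *Optn* (r=1.00, within groups 0.77) and *Gsta4* (r=1.00, within groups -0.24), and *Fbxo31* to *D230025D16Rik* (r=1.00, within groups 0.71) and *Zfp943* (r=1.00, within groups 0.48). *Fbxo30* was closest to *Ptdss1* and *Leprotl1* (both r=0.99), *Foxo4* to *Sqor* and *Zbtb18* (both r=0.99), *Foxo3* to *Ubxn7* and *Rfx1* (both r=0.99), and *Foxo1* to *H3f3aos* and *Kcnh7* (both r=0.98).

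Levels of many pairs of members were correlated from mouse to mouse within groups. Deviations from the group mean of log2 CPM were correlated over the 32 libraries for the 28 pairs of members, a test added after the P14 libraries had been seen, with 100000 permutations within groups and adjustment over the 28 pairs. Pearson's r ran from 0.00 to 0.88, and 25 pairs had an adjusted *P*-value under 0.05 for r, all positive. For both r and Spearman's rho, 18 pairs did. The highest was *Fbxo31* with *Foxo4* (r=0.88, rho=0.85, permutation *P*=1e-05 for each, the smallest the test can give, adjusted 9.33e-05 and 0.00028), and r was 0.83 without the 2 libraries farthest from the median of *Fbxo31* and 0.78 over the 24 libraries other than P14. *Foxo1* with *Foxo3* had r=0.87 and rho=0.80 (permutation *P*=1e-05 and 0.00013, adjusted 9.33e-05 and 0.00105), r=0.84 without the 2 farthest and 0.79 without P14. *Fbxo32* with *Trim63* had r=0.75 and rho=0.49 (permutation *P*=0.00273 and 0.0167, adjusted 0.00443 and 0.0275), but r=0.50 without the 2 farthest and 0.14 without P14, so that their relation rested largely on the P14 libraries. Without P14, 23 of the 28 pairs had r above 0, from -0.32 to 0.79. The values of 1 library share its depth and scaling, no such count was made for pairs of other genes, and the replicate 4 pattern at P14 was shared by 24% of all genes, so that the counts are not shown to be particular to the set.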

How the data were processed

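TA muscle RNA of 32 mice, 4 per genotype and age as the sample labels give them, was prepared by the authors with poly(A) selection and a directional kit. They aligned reads to GRCm38 with STAR (2.6.1) and deposited expected counts per gene, as made by RSEM (1.2.22 in the submitters' processing notes), without scaling or pooling. Whether counting used the strand is not given in the sources used here. Of 54838 genes, 54723 matched a GENCODE M21 symbol.

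Expected counts were rounded, and edgeR 4.0.16 was run in R 4.3.3 (filterByExpr, TMM, quasi-likelihood test, two-sided, Benjamini-Hochberg over all genes tested), with DESeq2 1.42.0 as the other tool. CPM per kb used the union of exons, and log2 CPM a prior count of 2. The test was checked on simulated data with the same spread for every gene and independent libraries. This covers neither the wide spread at P14 nor same-numbered libraries that deviate together. Ratios were compared by an exact permutation test (scipy 1.17.1). The members and lists were chosen with earlier results of these data known. Named were all 8 members, from each list at P21 and P35 the called genes with the 3 highest and 3 lowest log2 fold changes, at P1 and P14 every called list gene, and for likeness the 2 closest genes of each member. Other genes, such as *Nr3c1*, *Pdk4* and *Foxo6*, were named outside this rule, and not all of them are marked in the text. Same-numbered WT and KO libraries deviated together at P14 (r of 0.30 to 0.73 over genes), not at P1 (-0.33 to 0.01), P21 (-0.06 to 0.29) or P35 (-0.10 to 0.24), and the labels do not say what a number shares. Nothing in the labels says how mice of a group were related, so *P*-values measure the spread between these mice. Intervals cover counting error and spread, not PCR copies. Alternatives were RLE factors, library totals, no filter, a replicate block, another threshold, 1 fit of all libraries, no mitochondrial genes, no rounding and leaving out each library.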

Additional observations from a re-analysis of the deposited data

Results flagged for a closer look

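*Trim63* in WT replicate 4 at P14 stood at 318 CPM, against 107 to 131 CPM in the other 3 WT libraries of that age. Its gap to the nearest of them was larger than Dixon's 95% critical value for 4 samples allows. It was the 1 value apart among the 64 groups of 4 tested. Chance gives about 1 in 20, which is more than 1 among 64, so that the value is not shown to be unusual. The groups of different genes share libraries and are not independent. Replicate 4 of KO was also the highest of its group, at 325 CPM.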

How the results depend on the processing

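*Trim63* was called at P21 and at P35 under each alternative run. With 4 libraries a group, the spread between libraries limits *Fbxo32* at P14 in the fit without the block, and at P35 the calls of *Foxo4* and *Fbxo31* depend on the scaling. The cause of the changes below was not tested.

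Scaling by library totals moved the most values. The number of members called went to 2 at P21, to 3 for P14 against P1 in KO and to 1 for P21 against P14 in WT. Estimates that changed sign were those of *Foxo3* at P14 (0.013), of *Fbxo31* (0.12), *Foxo3* (0.14) and *Foxo4* (0.11) at P21, and of *Fbxo40* (0.034), *Foxo1* (0.018) and *Foxo3* (0.19) at P35. With age they were those of *Fbxo30* in WT (-0.28) and in KO (-0.11) and *Foxo4* in KO (-0.081) for P14 against P1, *Fbxo31* in WT (-0.078) for P21 against P14, and *Foxo3* in WT (-0.051) and *Foxo1* in KO (0.00117) for P35 against P21. For the KO effect at P35 against P21 they were those of *Trim63* (0.14), *Fbxo30* (0.19), *Fbxo40* (0.079) and *Foxo3* (0.047). The listed genes called at P1 went from 1 to 2. The share of all called genes that were higher in KO went from 68% to 90.9% at P21 and from 53% to 93.0% at P35.

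DESeq2 called 1 member at P1, 5 listed genes at P1 and 2 at P14, and the KO effect on *Foxo3* at P21 against P14 was -0.0066 with it, -0.0064 with RLE factors and -0.022 with no filter. At an adjusted *P*-value under 0.05 with no fold threshold, 4 members were called at P21, 1 and 2 for P21 against P14 in WT and KO, and 2 and 1 for P35 against P21. With the replicate block, 0 listed genes were called at P1 and 4 at P14, 0 members for P35 against P21 in WT, and *Foxo3* was at -0.021 there. All-gene calls also moved by over 1.5 times: at P1 from 8 to 98 (DESeq2), 14 (no filter), 2 (block) and 2 (all libraries in 1 fit), at P14 from 5 to 55, 10 and 98 with the first 3 of these, at P21 from 709 to 1079 with DESeq2 and 1157 with library totals, and at P35 from 2496 to 4676 with library totals. For the KO effect, 3, 79 and 86 genes (P14 against P1, P21 against P14, P35 against P21) became 11, 217 and 327 with DESeq2, 79 became 167 with library totals, 86 became 53 with no filter and 156 with the block, and 3 became 1 with the block. The block ended the calls of *Foxo4* for P35 against P21 in WT (adjusted *P*=0.0102 in edgeR) and for P14 against P1 in KO (adjusted *P*=0.0226) and no other call of a member. No other count of members or listed genes moved by over 1.5 times in these fits.

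Leaving out 1 library gave 0 to 1 members called at P1, 1 to 2 at P21, 0 to 1 for P21 against P14 in WT (1, *Fbxo40*, without P14 replicate 4), 0 to 3 in KO (3 without P14 replicate 4: *Fbxo32*, *Trim63* and *Fbxo40*), 0 to 1 for P35 against P21 in WT, and 0 to 1 listed genes at P1. Signs changed in these ranges. At P1 they were -0.022 to 0.17 for *Fbxo30*, -0.032 to 0.20 for *Fbxo31*, -0.0201 to 0.11 for *Foxo1* and -0.058 to 0.15 for *Foxo4*. At P14 they were -0.58 to 0.73 for *Fbxo32*, -0.056 to 0.75 for *Trim63*, -0.37 to 0.049 for *Fbxo31*, -0.33 to 0.16 for *Foxo1* and -0.21 to 0.0901 for *Foxo3*, and at P35 -0.57 to 0.078 for *Foxo1*. With age they were, in WT, -0.78 to 0.37 for *Fbxo32*, -0.59 to 0.092 for *Trim63* and -0.056 to 0.29 for *Fbxo31* at P21 against P14 and -0.13 to 0.11 for *Foxo3* at P35 against P21, and in KO -0.037 to 0.16 for *Fbxo30* at P35 against P21. For the KO effect they were -1.21 to 0.094 for *Fbxo32*, -0.47 to 0.33 for *Trim63* and -0.34 to 0.15 for *Foxo1* at P14 against P1, -0.13 to 0.28 for *Fbxo31*, -0.14 to 0.46 for *Fbxo40*, -0.15 to 0.14 for *Foxo3* and -0.027 to 0.21 for *Foxo4* at P21 against P14, and -0.15 to 0.011 for *Trim63* and -0.13 to 0.063 for *Fbxo30* at P35 against P21. The ratio of *Fbxo32* to *Trim63* differed by -0.32 to 0.27 at P21, and that of *Foxo1* to *Foxo3* by -0.0902 to 0.0896 at P14 and -0.14 to 0.16 at P35. With genotypes exchanged only within same-numbered pairs (replicate block), the smallest *P*-value the exact test allows for a ratio is 0.125.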
